A study of Mus musculus with 3 samples.

Results

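The genes of the voltage-gated sodium channel subunits (symbols of Scn, a number and the letter a or b) and of the voltage-gated calcium channel subunits (symbols that begin with Cacna1, Cacna2d, Cacnb or Cacng) were followed in the mouse heart ventricle at 3 stages. Members were taken by gene symbol alone, from the names that the deposited assembly gives to its transcripts, so the symbol rule uses no measured value, although these gene families were picked with earlier results of these data known. This gave 52 loci of 48617 in all. Of the 52, 39 were the loci of the channel genes themselves, which belong to the 20117 loci with a transcript matching a RefSeq mRNA, and 13 were loci transcribed from the strand opposite to a channel gene that the assembly had named after it. The symbol Scn2a1, an older name of Scn2a, did not match the rule, and its locus lay between 0.224 and 0.275 FPKM in the 3 libraries.

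Total RNA came from the heart ventricle of C57BL/6 mice (C57BL/6 J where the study's methods list its animals) at the embryonic days E10.5 and E13.5 and at 8 weeks of age (adult), with no mutation or treatment in any group. Each stage had 1 paired-end library from a stranded kit, so there was no replicate, no error between animals and no test between stages, and every difference given here is a difference between 2 libraries. How many animals were pooled for a library is not given in the sources used here. Values are FPKM, fragment numbers divided by exon length and by library size, so that levels of different genes are compared per length. Where 3 values follow one another with no stage named, they stand for E10.5, E13.5 and adult in this order. Expressed means 1 FPKM or more, the limit the study used, and changes are differences of log2(FPKM + 1), a scale that understates the change of loci near or below 1 FPKM.

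Voltage-gated sodium channels carry the fast inward current of the cardiac upstroke through a pore subunit (Scn, suffix a) that is accompanied by beta subunits (suffix b). Calcium channels of the L type couple excitation to contraction in ventricular muscle, while those of the T type open at lower voltage and are known from the embryonic heart, the atria and pacemaker cells. The calcium pore (Cacna1) is joined in high-voltage channels by an alpha2delta subunit (Cacna2d) and a beta subunit (Cacnb), both known to help bring it to the membrane, and the gamma family (Cacng) holds a skeletal muscle subunit, its relatives and several proteins known as partners of glutamate receptors.

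The tissue label was set beside its markers, some of which, such as Ttn, are shared by atrial myocytes. As a list they go with heart muscle and do not by themselves set ventricle apart from atrium. Markers of atrial myocardium summed to 6382 FPKM at E10.5, 6766 FPKM at E13.5 and 40.9 FPKM in the adult. All 7 markers of ventricular cardiomyocytes were at 18.8 FPKM or more in each embryonic library, and 6 of 7 in the adult, where Ttn, the giant sarcomere protein of every cardiomyocyte, was listed at 0 after 428 FPKM at E10.5 and 46.8 FPKM at E13.5. A value of 0 in this table can therefore be a failed estimate, and no fold is given against one. From the steps between low values, 1 FPKM over 1 kb of exon corresponded to about 15.3, 28.5 and 22.3 fragments. In RNA from whole tissue, fewer cells of a type and less RNA per cell cannot be told apart.

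Among the 39 channel genes, 20 were expressed in at least 1 library, and 14, 16 and 14 were expressed per library in order of age. These are 35.9%, 41% and 35.9% of the channel genes, against 56.2%, 57.7% and 55.5% of all mRNA loci. Only 9 channel genes were at 1 FPKM or more in all 3 libraries. From E10.5 to the adult, 8 of the 20 expressed channel genes had an adult value higher by 1 or more on this log2 scale (among them Cacna1c, Cacna1g, Cacna1s, Cacna2d1, Scn3a, Scn4a and Scn7a), where 14.8% of the 12569 expressed mRNA loci were. Of the genes named, Cacna1s, Scn3a and Scn4a were expressed in the adult library alone, so the adult was bound to be their highest value. Lower by 1 or more were 5 (Cacna1d, Cacna1h, Cacna2d2, Cacnb3 and Cacng6), where 27.3% of mRNA loci were. The median change of the 20 genes was 0.76, beside -0.40 for mRNA loci. With libraries scaled by the median of ratios over mRNA loci, which moves the mRNA median to -0.06, the median of the channel genes was 1.01. With that scaling, 16 of the 52 loci, opposite-strand loci included, were higher and 4 lower, in place of 11 and 5. The limit of expression was applied again to the scaled values, and no share of mRNA loci was computed for these counts. With that scaling Cacnb3 missed the limit of 1 on the log2 scale (-0.87), and Scn4b (1.24) passed it.

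**Figure D1:**
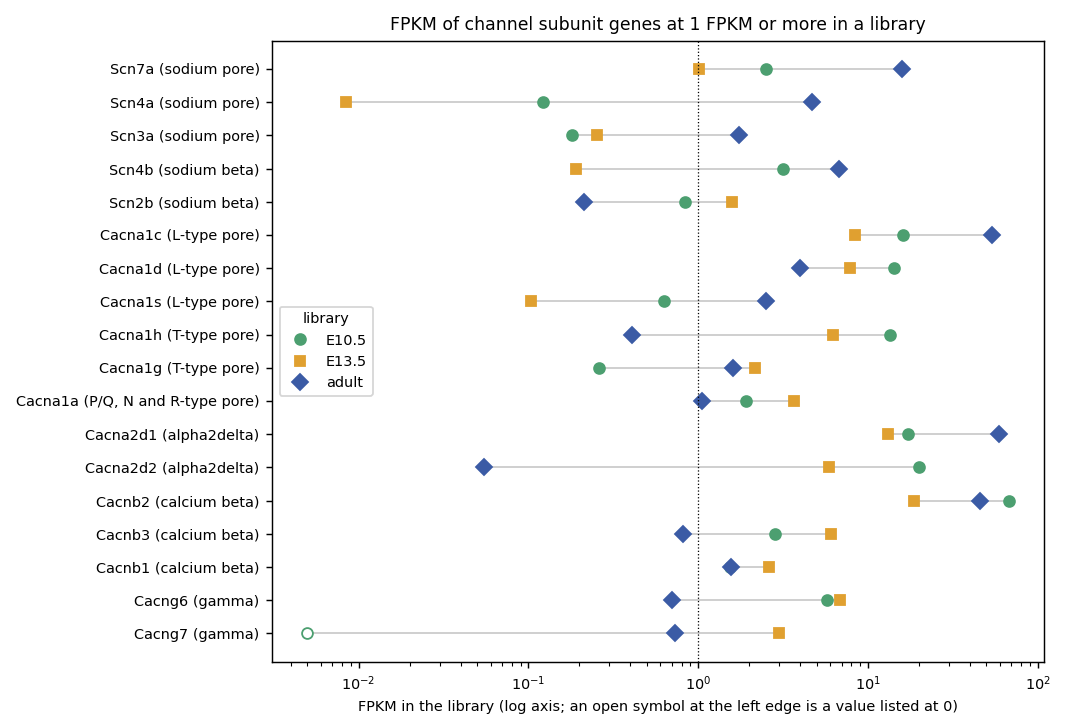
FPKM on a log axis (horizontal) of the channel genes described here that reached 1 FPKM in a library, with 1 symbol per library (circle E10.5, square E13.5, diamond adult), a grey line over their range and a dotted line at 1 FPKM. Cacnb2 reached the highest value, 67.8 FPKM at E10.5, and Cacna2d2 went from 20.1 FPKM at E10.5 to 0.0551 FPKM in the adult.

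Of the 9 sodium pore genes, 4 were expressed and all of these had an adult value above that of E10.5 by 1 or more. Scn3a and Scn4a reached 1 FPKM in the adult library alone, so the limit of expression itself made the adult their highest value. Scn7a encodes a sodium channel that responds to sodium level more than to voltage and is known from glia and other non-excitable cells. Its values were 2.52, 1.01 and 15.9 FPKM, with the adult 2.26 above E10.5 on the log2 scale. The adult value was 6.32 times that of E10.5 and 15.8 times that of E13.5.

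The start of Scn7a also faced an unnamed unspliced transcript on the other strand, whose start lay 229 bases from that of Scn7a and which stood at 0, 0.203 and 0.978 FPKM. Both were highest in the adult library, but the unnamed transcript was below the limit of expression in all 3. The stretch between them is shown because it lies before both starts. It is chr2:66784915-66785138 of GRCm38.p6 (minus strand, RefSeq promoter window), leaving off the 4 bases next to the start and the bases in the other transcript. The capitals mark the single match to the GATA motif AGATAA, here on the reverse strand, whose first base lies 116 bases before the start.
Scn7a: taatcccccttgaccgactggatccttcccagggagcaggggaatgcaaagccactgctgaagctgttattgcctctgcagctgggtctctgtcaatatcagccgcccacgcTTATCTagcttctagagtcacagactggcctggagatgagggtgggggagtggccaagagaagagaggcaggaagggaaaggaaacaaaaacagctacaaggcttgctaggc
The motif AGATAA occurred, on either strand, in the upstream 250 bases of 9.99% of all 32851 RefSeq promoter windows, and in 1 of the 39 windows of channel genes, this one of Scn7a.

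Scn4a, the sodium pore of skeletal muscle, stood at 0.121, 0.00846 and 4.67 FPKM. The E13.5 value amounts to only 1.59 to 1.93 fragments, so no fold against it is given. The adult lay 2.34 above E10.5. The markers of fast skeletal muscle summed to 53.9, 64.9 and 3.64 FPKM over the same stages. Most of each sum was Tnni2 (17.5, 51.0 and 1.52 FPKM) and Mylpf (29.9, 8.69 and 1.46 FPKM). The skeletal markers Myh1 and Myh4 were below 0.1 FPKM in all 3 libraries, and for 4 of the 7 the adult value was below that of E10.5 by 1 or more. The part of skeletal muscle cells in the Scn4a values was not tested. Scn3a, known from neurons of the embryo and newborn, had 0.180, 0.253 and 1.75 FPKM, the adult 1.22 above E10.5. The neuron markers summed to 13.7, 18.3 and 5.80 FPKM, with 2, 4 and 2 of 11 at 1 FPKM or more, and with Th listed at 0 in the adult. Most of the E10.5 sum was Tubb3, a tubulin of neurons (7.90, 9.49 and 1.72 FPKM), which with Nefl, a neurofilament (2.70, 1.34 and 0.142 FPKM), had a lower adult value by 1 or more. Stmn2, a growth cone protein, was the 1 marker with a higher adult value by 1 or more (0.742, 4.66 and 3.53 FPKM, a difference of 1.38). Their part in the Scn3a values was not tested.

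The other 5 sodium pore genes (Scn1a, Scn8a, Scn9a, Scn10a and Scn11a) lay between 0 and 0.542 FPKM in every library. The highest of them was Scn10a, a pore known from sensory neurons that has been linked to cardiac conduction. It stood at 0.542, 0.217 and 0.0642 FPKM. It was highest at E10.5. The expressed sodium pore genes were highest in the adult, which for Scn3a and Scn4a followed from the limit of expression.

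Of the 4 sodium beta genes, 3 were expressed, and none differed by 1 or more between E10.5 and the adult. Scn4b, known from the adult conduction system and muscle, stood at 3.18, 0.191 and 6.72 FPKM. Scn2b, best known from brain, stood at 0.835, 1.58 and 0.212 FPKM, with its highest value in the library where Scn4b was lowest. These genes lie side by side on chromosome 9 (Scn2b 45117876 to 45130070, Scn4b 45139042 to 45154061, mm10, both plus strand), separated by 8.97 kb. The ratio of Scn4b to Scn2b was 3.80, 0.121 and 31.7, a ratio that no scaling between libraries can alter. The E13.5 ratio rests on about 23.1 fragments of Scn4b, and the adult ratio on about 21.5 fragments of Scn2b. Scn3b stayed at 0.176 to 0.374 FPKM.

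Of the 10 calcium pore genes, 6 were expressed. Both embryonic libraries held a mixture of pore genes, and in the adult library 1 gene made up most of the class. Cacna1c, the L-type pore of the ventricular myocyte, stood at 16.0, 8.39 and 53.7 FPKM. The adult value was 3.35 times that of E10.5, a change of 1.68. Cacna1d, the L-type pore known from sinoatrial and atrial cells and from endocrine and sensory cells, stood at 14.2, 7.89 and 3.98 FPKM, a change of -1.61. The ratio of Cacna1c to Cacna1d was therefore 1.13, 1.06 and 13.48. The pore genes were nearly even in both embryonic libraries and far apart in the adult.

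Cacna1s, the L-type pore of skeletal muscle, had 0.627, 0.104 and 2.50 FPKM, with the adult 1.10 above E10.5. Like Scn4a it was expressed in the adult library alone and so highest there, where the sum of the fast skeletal markers was lowest. The part of skeletal muscle cells in the Cacna1s values was not tested. Cacna1f, known from the retina, was at most 0.0137 FPKM. In the class as a whole the L-type genes held 65.3%, 57.2% and 94.9% of the summed FPKM, and Cacna1c alone held 33.9%, 29.3% and 84.7%.

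The T-type genes exchanged places. Cacna1h stood at 13.47, 6.22 and 0.407 FPKM. The adult value was 33.1 times lower than that of E10.5, a change of -3.36. Cacna1g stood at 0.262, 2.15 and 1.61 FPKM, a change of 1.05. The ratio of Cacna1h to Cacna1g was 51.5, 2.89 and 0.253, so the gene that led in both embryonic libraries was the lower of the pair in the adult. The E10.5 ratio rests on 7.6 to 33 fragments of Cacna1g, and the adult ratio on 23.3 to 82.8 fragments of Cacna1h. Cacna1i, the remaining T-type gene, reached at most 0.0755 FPKM. T-type genes together made up 29.1%, 29.2% and 3.30% of the calcium pore sum.

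Markers of atrial myocardium moved in the same direction as Cacna1h and Cacna1d. All 4 (Myl7, Myl4, Sln and Nppa) had lower values in the adult, with sums of 6382, 6766 and 40.9 FPKM. Those genes are also known from the embryonic ventricle. Of 7 markers of the conduction system, 2 (Hcn4 and Tbx18) were lower by 1 or more, and the list summed to 41.9, 40.4 and 5.45 FPKM. The part of atrial or conduction cells in the values of Cacna1h and Cacna1d was not tested.

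Cacna1a, the P/Q-type pore of nerve terminals, stood at 1.92, 3.67 and 1.06 FPKM and was the only expressed gene of its group. Cacna1b and Cacna1e, the N-type and R-type pores of neurons, were between 0.0223 and 0.358 FPKM. The 3 genes together summed to 2.61, 3.88 and 1.14 FPKM, and their share of the calcium pore sum was highest at E13.5. Cacna1a, Cacna1b and Cacna1e were each lowest in the adult, as was the sum of the neuron markers. The adult value of Cacna1b rests on 3.47 to 3.56 fragments. The part of neurons in the values of these 3 genes was not tested.

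**Figure D2:**
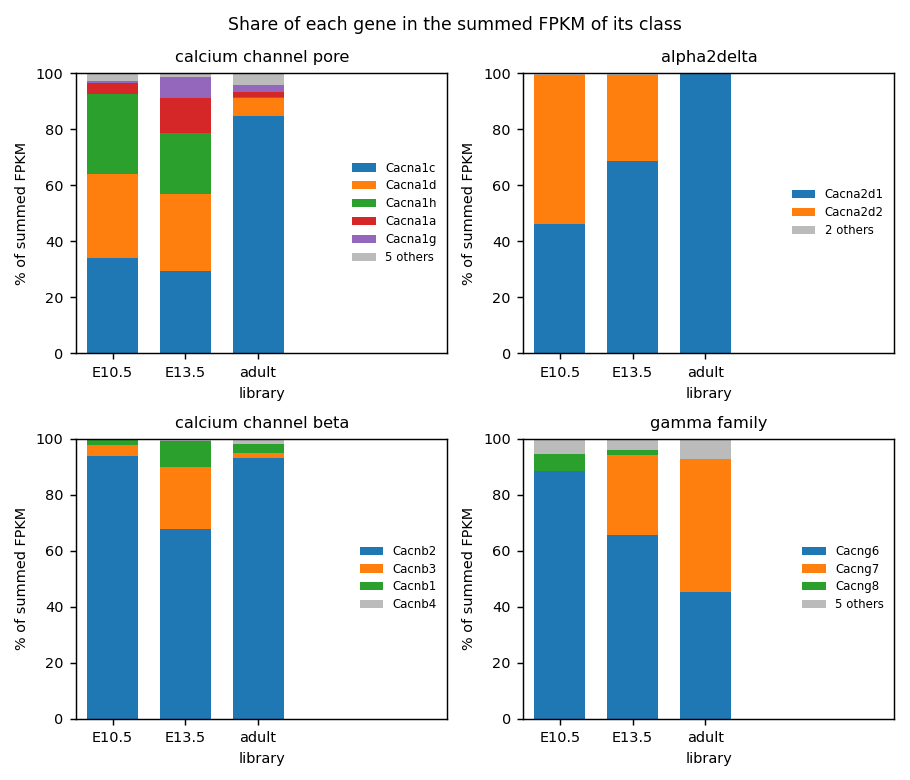
Stacked bars of the share (percent, vertical) of each gene in the summed FPKM of its class, per library (horizontal), for the 4 classes of calcium channel subunit. Cacna1c took 33.9% of the calcium pore sum at E10.5 and 84.7% in the adult, and Cacna2d1 went from 46.0% to 99.7% of the alpha2delta sum.

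The alpha2delta class held mainly 2 genes in the embryo and 1 in the adult. Cacna2d1, the alpha2delta subunit of heart and skeletal muscle, stood at 17.3, 13.2 and 59.6 FPKM. The adult value was 3.45 times that of E10.5, a change of 1.73. Cacna2d2, known best from brain, stood at 20.1, 5.90 and 0.0551 FPKM, a change of -4.32. At E10.5 Cacna2d2 was above Cacna2d1, with 53.4% of the class, and in the adult it held 0.0921%. The adult ratio of Cacna2d1 to Cacna2d2, 1083, rests on 6.62 to 6.79 fragments of Cacna2d2, and the E10.5 ratio was 0.861. The adult value of Cacna2d1 was close to that of Cacna1c (53.7 FPKM), as was the E10.5 value. At E13.5 they lay further apart, with Cacna2d1 at 13.2 FPKM and Cacna1c at 8.39 FPKM.

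Cacna2d3 and Cacna2d4 were never expressed, with 0.0218 to 0.187 FPKM. Cacna2d1 was the leading gene of the class at E13.5 and in the adult, and Cacna2d3 stayed below 0.2 FPKM. Their promoter windows are shown side by side because they are alike in composition and unlike in level. They are chr5:15934441-15934690 (plus strand) and chr14:29721865-29722114 (minus strand) of GRCm38.p6, from RefSeq, each being the 250 bases before the start with no annotated exon. No letters are in capitals because neither window held any of the 7 motifs searched.
Cacna2d1: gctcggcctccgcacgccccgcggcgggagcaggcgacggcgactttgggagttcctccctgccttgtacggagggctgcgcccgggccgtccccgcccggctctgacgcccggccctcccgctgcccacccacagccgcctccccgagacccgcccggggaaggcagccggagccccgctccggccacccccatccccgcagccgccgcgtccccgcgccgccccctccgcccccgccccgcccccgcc
Cacna2d3: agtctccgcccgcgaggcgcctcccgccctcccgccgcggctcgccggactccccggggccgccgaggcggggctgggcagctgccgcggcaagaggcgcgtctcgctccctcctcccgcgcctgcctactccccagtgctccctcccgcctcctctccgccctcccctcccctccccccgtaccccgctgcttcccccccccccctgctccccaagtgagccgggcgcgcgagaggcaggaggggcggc
The Cacna2d1 window held 36 CpG dinucleotides at 82.4% G and C, and that of Cacna2d3 held 30 at 80.0%, where the median of all windows was 6. The Scn7a window above held 3. A CpG count at or above 16, the upper quartile of all windows, was found in 15 of the 39 windows of channel genes.

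RefSeq promoter windows were found for 29 of the 39 channel genes, and 16 of the 39 windows held no exon of the deposited or GENCODE transcripts. Besides AGATAA, the motifs were the TATA box TATAAA (1 of the 39 windows, at Cacna1d, against 12.4% of all windows), the T-box core GGTGTG (3 windows, at Cacna1b, Cacna1i and Cacng5, against 16.3%) and the Nkx2-5 motif TNAAGTG (4 windows, at Cacna1f, Cacnb2, Cacnb3 and Scn9a, against 10.1%). The REST motif TTCAGCACC, the MEF2 site and the CArG box had no match in the channel windows and were in 0.301%, 2.92% and 1.47% of all windows. Each was searched on both strands in the 250 upstream bases, and a match is a string of letters, not a shown binding site. In 30 of the 39 windows no motif matched. Cacna1h, Cacna1g and Scn3a were among the 10 genes with no entry.

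Cacnb2, the beta subunit that partners Cacna1c in the heart, was the highest channel gene at E10.5 and E13.5 and the third highest in the adult. It stood at 67.8, 18.6 and 46.0 FPKM, so that E13.5 was lower than E10.5 by 1.81 and lower than the adult by 1.26, while E10.5 and the adult differed by -0.55. It held 93.6%, 67.6% and 93.2% of the calcium beta sum. Its locus joined 8 transcripts with lengths from 3814 to 19756 bases and 7 start sites, the widest range of lengths named here, and an FPKM for a locus of that kind depends on how fragments were shared among its transcripts.

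Cacnb3, known from brain and smooth muscle, was highest at E13.5, with 2.85, 6.08 and 0.810 FPKM and an adult value lower than that of E10.5 by 1.09. Cacnb1, the beta subunit of skeletal muscle, had 1.53, 2.60 and 1.57 FPKM and differed by only 0.02 between E10.5 and the adult. Cacnb4 stood at 0.222, 0.228 and 0.985 FPKM, just under the limit in the adult. The ratio of Cacnb2 to Cacnb3 was 23.8, 3.06 and 56.7, so Cacnb3 came nearest to Cacnb2 at E13.5. The longest transcripts had 19756 bases at Cacnb2 and 2819 at Cacnb3, and the E13.5 values of mRNA loci varied with length, as given below. The part of length in this ratio and in the E13.5 share of Cacnb2 was not tested.

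Of the 8 gamma genes only Cacng6 and Cacng7 were expressed. Cacng6, a relative of the skeletal muscle gamma subunit, stood at 5.76, 6.81 and 0.701 FPKM. The adult value was 8.21 times lower than that of E10.5, a change of -1.99. A 2-exon unnamed transcript on the other strand began 164 bases from the Cacng6 locus and had 3.13, 0.919 and 1.14 FPKM, highest at E10.5, where Cacng6 was highest at E13.5. Cacng7 was listed at 0 at E10.5 and stood at 3.002 FPKM at E13.5 and 0.736 FPKM in the adult. These genes lie with Cacng8 in a row on chromosome 7, with gaps of 26.1 kb and 8.02 kb, all on the plus strand. The Cacng8 gene between them stayed at 0 to 0.394 FPKM. Cacng1, the skeletal muscle gamma subunit itself, was at most 0.0628 FPKM, and the 6 gamma genes that were not expressed covered 0 to 0.394 FPKM.

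**Figure D3:**
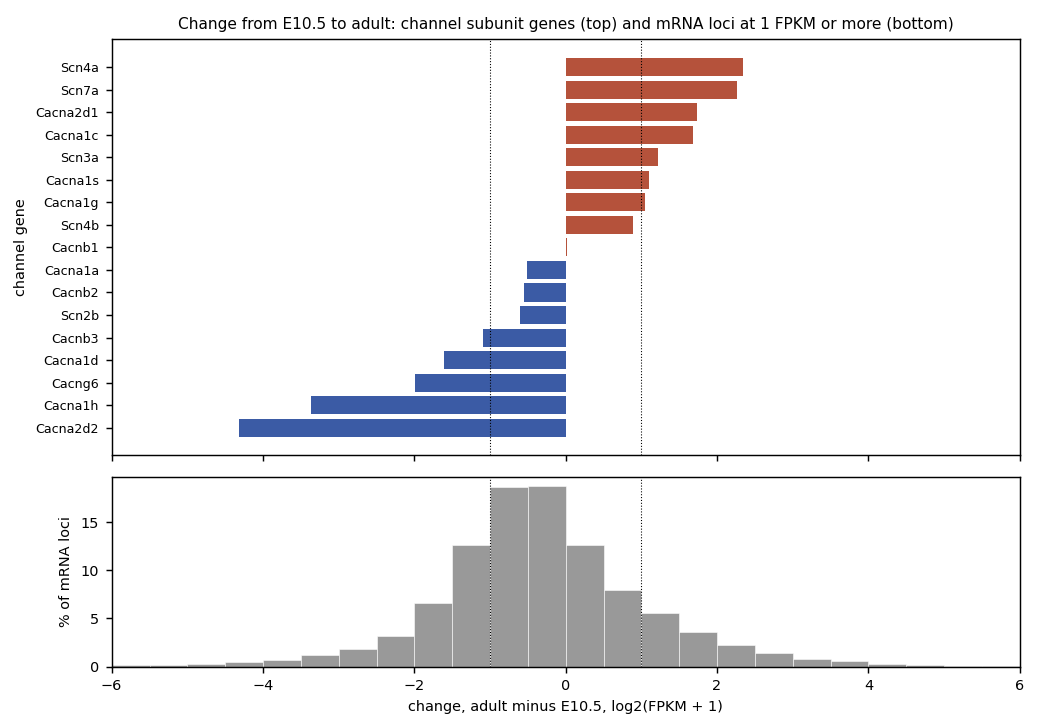
Upper panel, adult minus E10.5 on the log2(FPKM + 1) scale (horizontal) for the expressed channel genes described here other than Cacng7, which is listed at 0 at E10.5. Lower panel, percent of the 12569 expressed mRNA loci in steps of 0.5 on the same axis. Dotted lines mark -1 and 1, and channel genes run from -4.32 for Cacna2d2 to 2.34 for Scn4a.

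The steps between neighbouring stages were unlike each other. From E10.5 to E13.5, 2 of the 20 expressed channel genes were higher by 1 or more (Cacna1g, and Cacng7 from a value listed at 0), where 5.89% of mRNA loci were, and 4 were lower (Cacna1h, Cacna2d2, Cacnb2 and Scn4b), where 4.85% were. From E13.5 to the adult, 10 were higher, where 13.0% of mRNA loci were, and 7 were lower, where 32.1% were. Among the 10 were Cacna1c, Cacna1s, Cacna2d1, Cacnb2, Scn3a, Scn4a, Scn4b and Scn7a. Of these, Cacna1s, Scn3a and Scn4a were expressed in the adult library alone. The 7 were Cacna1a, Cacna1h, Cacna2d2, Cacnb3, Cacng6, Cacng7 and Scn2b, of which Cacng7 and Scn2b were expressed at E13.5 alone. Over all 52 loci the counts from E13.5 to the adult were 12 higher and 7 lower. They were 17 and 4 after scaling by the median of ratios, and 13 and 4 after scaling to equal sums. The counts from E10.5 to E13.5 were 3 and 4, against 2 and 5 and 2 and 7 after these scalings. No share of mRNA loci was computed for the scaled counts.

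Many of these genes were lowest at E13.5. In 9 of the 20 (among them Cacna1c, Cacna1s, Cacna2d1, Cacnb2, Scn4a, Scn4b and Scn7a) the E13.5 value was the lowest of the 3, which is 45.0%, and the same 9 genes were found under both scalings. Among expressed mRNA loci the share was 16.7%, against 27.6% after scaling by the median of ratios and 27.4% after scaling to equal sums. A lowest value at E13.5 moved with transcript length. The share of mRNA loci with E13.5 lowest was 5.95% where the longest transcript was under 2 kb and 51.7% where it was 12 kb or more. The median change of mRNA loci from E10.5 to E13.5 went from 0.49 to -0.53 over the same bins.

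Channel pore transcripts are long. Of the 20 expressed channel genes, 12 had a longest transcript of 6 kb or more, and 7 of the 9 such genes were among them. Scn4b, with a longest transcript of 4244 bases, was not. The part of transcript length in the E13.5 values was not tested. Between E10.5 and adult the median change over mRNA loci lay between -0.45 and -0.37 in every length bin, and no trend with length was seen there.

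**Figure D4:**
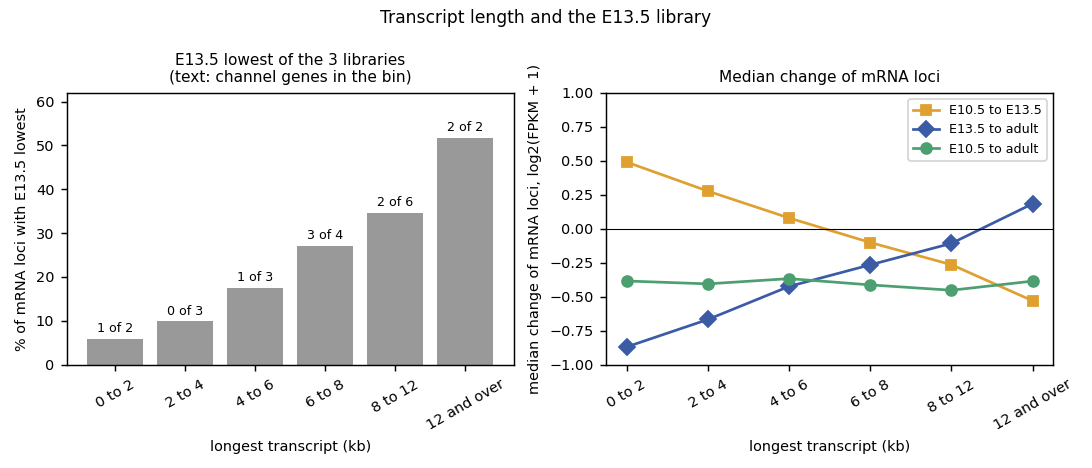
Left, percent of expressed mRNA loci whose E13.5 value was the lowest of the 3 libraries (vertical), by length of the longest transcript in kb (horizontal), with the number of channel genes showing it above each bar. Right, median change of mRNA loci per length bin for the 3 comparisons. The share rises from 5.95% to 51.7% with length, and the E10.5 to adult medians stay between -0.45 and -0.37.

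The 13 opposite-strand loci were mostly low. Of these loci 5 reached 1 FPKM in a library, or 38.5%, where 58.2% did of the 2545 loci whose transcripts all lie opposite to a known gene. The adult value was the highest of the 3 in 12 of the 13, and in 61.7% of the 2545, which include 12 of the 13. In the adult 5 of the 13 were expressed, with 1 at E10.5 and 1 at E13.5, where 40.3%, 32.3% and 10.3% of the 2545 were in the same order of stages. A group of 8 lay within Cacna2d3 on chromosome 14, from 29040564 to 29098895 (mm10), each unspliced, on the plus strand and overlapping an exon of Cacna2d3 by 68 to 144 bases. Their values spanned 0 to 0.235, 0 to 0.120 and 0.429 to 3.51 FPKM, with medians of 0.0373, 0.0318 and 0.791 FPKM. All 8 were highest in the adult, while Cacna2d3 itself had 0.187, 0.112 and 0.0456 FPKM and was lowest there. These Cacna2d3 values rest on only about 10.6, 11.8 and 3.75 fragments.

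The group started 6921 bases past the 3′ end of Lrtm1 (chromosome 14, 29017435 to 29033642, mm10, plus strand), a gene within Cacna2d3 that has the same strand as the 8 loci. Lrtm1 had 1.85, 0.714 and 127 FPKM. The nearest of the 8 loci had the highest adult value, 3.51 FPKM, and the next nearest 1.42 FPKM, while the 6 farther ones lay between 0.429 and 0.877 FPKM with no order by distance. Whether these are separate transcripts or continue from Lrtm1 was not tested.

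**Figure D5:**
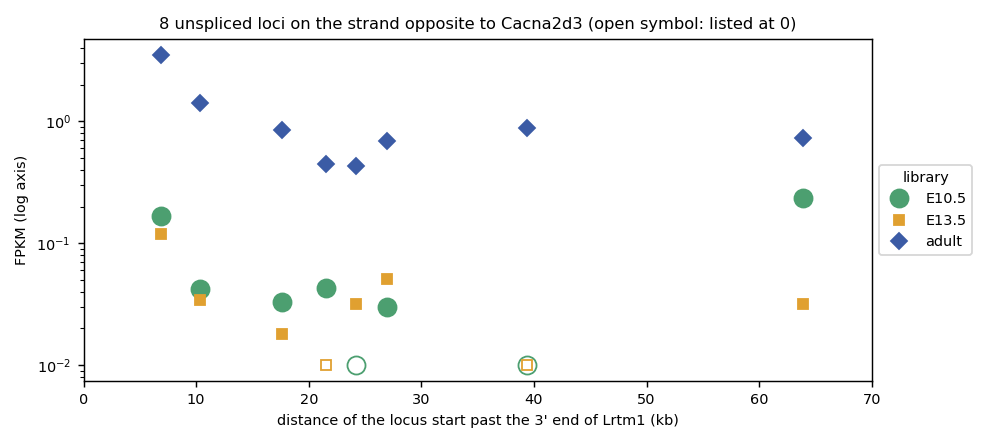
FPKM on a log axis (vertical) of the 8 unspliced loci opposite to Cacna2d3 against the distance of each locus start from the 3′ end of Lrtm1 in kb (horizontal), with 1 symbol per library (large circle E10.5, square E13.5, diamond adult, open where listed at 0). All 8 adult values, 0.429 to 3.51 FPKM, lie above those of the embryonic libraries.

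The 5 further opposite-strand loci lay at Cacna1d (1.81, 0.679 and 1.94 FPKM, unspliced, within the gene), Cacnb4 (0.869, 2.98 and 1.19 FPKM, up to 3 exons), Scn10a (0.152, 0.271 and 1.37 FPKM), Scn3b (0.503, 0 and 0.518 FPKM) and Cacna1f (0, 0 and 0.893 FPKM). The locus at Cacnb4 was the exception that peaked at E13.5, with a change of 1.09 from E10.5. At Scn10a the opposite locus was highest in the adult (about 25.3 fragments), where Scn10a was lowest (about 9.17 fragments).

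Genes listed as binding or regulating these channels were read against the 14.8% of expressed mRNA loci that were higher and the 27.3% that were lower by 1 or more in the adult. Of 15 sodium channel partners 13 were expressed, none was higher in the adult than at E10.5 by 1 or more, and 1 was lower. That gene was Ank3, which encodes the ankyrin that anchors sodium channels in neurons and at the intercalated disc, with 20.4, 8.28 and 9.48 FPKM and a change of -1.03. Of 15 genes listed as calcium channel regulators 8 were expressed and 2 were higher, and none was lower. That list also held Nalcn, Unc79 and Unc80, genes of a sodium leak channel and not calcium channel regulators. None of them was above 0.211 FPKM in any library. Ahnak, a very large protein that binds the calcium beta subunit, had 42.9, 22.3 and 106 FPKM (change 1.28), and Ank2, the ankyrin of the transverse tubule region, had 8.88, 5.51 and 20.7 FPKM (change 1.13). The median change was 0.05 over all 15 sodium partners and 0.01 over all 15 genes of the calcium list, and neither list is limited to expressed genes.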

How the data were processed

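Total RNA of C57BL/6 (C57BL/6 J in the methods) heart ventricle was sequenced in 3 libraries, 1 per stage. Per the study's methods and the submitters' processing notes, reads were mapped to mm10 with TopHat2 (with Bowtie), then assembled by Cufflinks both with UCSC annotation and without it. Exact versions and further options are not given in the sources used here. The authors deposited FPKM values per merged locus, and the exons of the merged transcripts. Members follow from a symbol rule that uses no measured value, but the families and gene lists were chosen with earlier results of these data known.

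Loci with a transcript of class "=" to a RefSeq mRNA were called mRNA loci. Changes were differences of log2(FPKM + 1), counted at 1 or more over loci at 1 FPKM or more in a library. With 1 library per stage no test was run. Fragments per FPKM were estimated from low-value steps at single-transcript loci of 3 kb or more. FPKM give no counts, so no interval is given. Of 952 introns of member RefSeq transcripts, 946 matched GENCODE M21. Named were all members at 1 FPKM or more, low members of muscle or heart or beside a named member, and partners changed by 1 or more. Marker lists of endothelium, fibroblasts, smooth muscle and macrophages summed to 176, 90.3, 1333 and 2.93 FPKM at E10.5, 110, 154, 1289 and 11.3 at E13.5, and 201, 380, 451 and 59.0 in the adult (1 of 4 macrophage markers had no mRNA locus). Python 3.11.15, numpy 2.4.6, pandas 2.3.3 and matplotlib 3.10.9 were used. Alternatives were another pseudocount, 2 scalings, other limits, no filter, joined loci or opposite-strand loci left out, and changes centred by transcript length. Some members and markers are counted but not reported here.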

Additional observations from a re-analysis of the deposited data

How the results depend on the processing

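Direction held for the 20 channel genes at 1 FPKM or more (that of Cacng7 rests on a value listed at 0), in the change from E10.5 to the adult, under a pseudocount of 0.1, both scalings and centring on loci of like length. In size, 10 of the 80 recomputed changes differed by over 1.5 times as a linear fold, all with the pseudocount of 0.1, such as Cacna2d2 from -4.32 to -7.02, Cacna1g from 1.05 to 2.24 and Cacng7 from 0.80 to 3.06. Of 66 counts recomputed under an alternative, some of them over the 39 gene loci only, 53 stayed within 1.5 times. The 53 include every count with no filter and every count with joined loci left out, which could not differ. With a pseudocount of 0.1, 9 loci were lower from E10.5 to E13.5 in place of 4, and with equal sums over mRNA loci 7 were. From E13.5 to the adult, 4 were lower in place of 7 under each scaling and under the length centring, which was chosen after seeing the data. With a limit of 2 on the log2 scale, 1 locus was higher and 0 lower at E13.5 than at E10.5, 7 and 3 were so in the adult against E13.5, and 2 and 2 in the adult against E10.5. For none of these alternative counts was a share of mRNA loci computed. In the adult, 29 loci were at 0.5 FPKM or more and 11 at 2 FPKM or more, in place of 19 at 1 FPKM. Leaving out joined loci changed nothing, since no member locus was joined. Dropping the filter changed no count either, since a locus under 1 FPKM in every library cannot change by 1 on the log2(FPKM + 1) scale. Leaving out opposite-strand loci was also chosen after seeing the data. The lowest values rest on few fragments, and the count in the adult depends most on the limit. No paired analysis was possible because a stage consists of 1 library.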
